A study of Mus musculus with 36 samples.

Results

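The interferon-stimulated genes described here are 39 genes chosen by name from a list of symbols, out of 36172 gene entries in the study's table. They encode transcription factors, sensors of foreign nucleic acid, antiviral effectors, membrane restriction factors, and proteins of ubiquitin-like and ADP-ribose modification. All 39 were found in the table by their symbol or gene identifier. RNA was sequenced from the hippocampus of mice that carry the Cx3cr1-NuTRAP genotype, in which a tamoxifen-inducible cre under the promoter of Cx3cr1 switches on a tag on the ribosomes of the recombined cells. Translating ribosome affinity purification (TRAP) then pulls down the RNA bound to tagged ribosomes, and the input is RNA of the whole tissue, taken before the antibody was added.

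The study compared mice induced early or late in life. The young early inputs came from 10 animals of 6 months (5 females, 5 males). The old early inputs came from 12 animals of 22 months (7 females, 5 males), and the old late inputs from 7 animals of 22 months (5 females, 2 males). Each of the 7 old late animals also gave a TRAP library, so the labels allow no comparison of ages within the pulldown here. All 4 groups share the Cx3cr1-NuTRAP genotype and tamoxifen induction, and no group without cre or without tamoxifen was analysed here. The Cx3cr1 promoter is active in microglia and also in macrophages at the borders of the brain, so the pulldown is not one of microglia alone. Old late inputs and young inputs differed in both age and induction. The sample-sheet index in the labels ran from 1 to 23 in the old early inputs, from 25 to 38 in the old late libraries and from 39 to 57 in the young inputs, so position on the sheet and group cannot be told apart.

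Type I interferons are secreted when cells sense viral or misplaced nucleic acid. They bind the receptor formed by Ifnar1 and Ifnar2, and the kinases on the receptor set off the assembly of ISGF3, a complex that holds STAT2 and IRF9. This complex binds the interferon-stimulated response element (ISRE) of target genes, and interferon-gamma acts through the gamma-activated site. In the ageing brain, interferon-stimulated genes are known as markers of a subset of microglia and of cells at the choroid plexus and vessels.

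Promoter sequences were taken from RefSeq on build GRCm38.p6 as the 250 bases before each start, which matched 30 of the 39 genes. Parp14, Parp9, Zbp1, Rtp4, Ifi27l2a, Mx1, Tor3a, Usp18 and Dhx58 had no entry in the table. The ISRE core was searched as GAAANNGAAA on both strands, counting overlapping matches. It was found in 12 of the 30 genes (40.0%), namely Gbp2, Gbp3, Isg15, Oas1a, Trim30a, Ifitm2, Bst2, Stat2, Lgals9, Rsad2, Ifit1 and Ifit3, against 3.46% of all 27025 genes with an entry. The gamma-activated site was searched as TTCNNNGAA and was found in 4 of the 30 genes (13.3%), against 8.13% of all genes. A match describes these letters and is no evidence of binding. The promoters below are shown for the genes on which the results turn: 2 IFIT genes and Isg15, the neighbours Rsad2 and Cmpk2, and Lgals9. ISRE matches are in capitals, each sequence is written 5′ to 3′ on the strand of its gene, and the last base lies next to the start.
Isg15 (chr4:156200819-156201068, minus strand): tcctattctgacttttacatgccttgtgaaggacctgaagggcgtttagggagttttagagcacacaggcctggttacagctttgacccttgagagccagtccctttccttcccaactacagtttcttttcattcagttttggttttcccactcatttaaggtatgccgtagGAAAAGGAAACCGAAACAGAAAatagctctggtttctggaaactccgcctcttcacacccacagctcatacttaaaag
Ifit1 (chr19:34640639-34640888, plus strand): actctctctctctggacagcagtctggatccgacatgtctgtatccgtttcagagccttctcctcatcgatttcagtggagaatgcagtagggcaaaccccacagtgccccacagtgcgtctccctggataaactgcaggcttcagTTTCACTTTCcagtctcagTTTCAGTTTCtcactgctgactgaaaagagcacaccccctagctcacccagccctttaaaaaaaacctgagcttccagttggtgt
Ifit3 (chr19:34583279-34583528, plus strand): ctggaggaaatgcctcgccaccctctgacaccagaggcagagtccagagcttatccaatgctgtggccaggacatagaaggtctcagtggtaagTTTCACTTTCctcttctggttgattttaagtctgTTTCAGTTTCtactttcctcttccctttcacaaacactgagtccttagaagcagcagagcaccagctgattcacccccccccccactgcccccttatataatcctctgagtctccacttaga
Rsad2 (chr12:26456453-26456702, minus strand): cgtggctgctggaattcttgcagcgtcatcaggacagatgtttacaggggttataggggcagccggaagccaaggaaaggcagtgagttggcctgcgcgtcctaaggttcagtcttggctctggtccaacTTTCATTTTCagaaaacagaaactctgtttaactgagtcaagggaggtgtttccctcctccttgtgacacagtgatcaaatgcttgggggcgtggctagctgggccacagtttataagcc
Cmpk2 (chr12:26468965-26469214, plus strand): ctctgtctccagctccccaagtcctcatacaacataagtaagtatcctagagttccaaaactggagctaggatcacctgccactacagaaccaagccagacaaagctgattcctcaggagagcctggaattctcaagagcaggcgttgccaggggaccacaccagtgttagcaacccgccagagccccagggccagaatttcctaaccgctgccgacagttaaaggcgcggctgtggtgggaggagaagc
Lgals9 (chr11:78984925-78985174, minus strand): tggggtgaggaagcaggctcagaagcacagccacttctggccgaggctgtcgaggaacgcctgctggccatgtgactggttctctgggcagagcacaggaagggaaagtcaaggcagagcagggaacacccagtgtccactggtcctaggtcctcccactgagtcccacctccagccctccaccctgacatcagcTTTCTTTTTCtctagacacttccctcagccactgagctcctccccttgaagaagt
Isg15 holds 3 overlapping matches, the nearest 56 bases before the start. Ifit1 holds 2 matches, at 94 and 75 bases, and Ifit3 holds 2, at 146 and 112 bases. Rsad2 has 1 match at 110 bases and Lgals9 has 1 at 45 bases, while Cmpk2, which lies next to Rsad2 on the opposite strand, has none in this window.

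Each library held between 12.9 and 20.4 M estimated counts, so that a level of 1 CPM (counts scaled by library size to a common total) stands for 12.6 to 19.8 counts, and levels are given as CPM. The labels count animals, and p-values of the input comparisons measure the spread between them. The main fit of TRAP against input treated the TRAP and input libraries of an animal as independent. Several libraries stood apart for these genes. TRAP replicate 3, from a female, was the highest of the 7 TRAP libraries for 37 of 39 genes, with a median of 2.12 times the median of the others. Its microglia markers were at 1.44 times that median, as they were in TRAP replicate 5, where the interferon-stimulated genes were at 1.34 times. The 2 male TRAP libraries, replicates 1 and 2, were lowest for 12 and 19 genes, with medians of 0.79 and 0.76 times the median of the others. Their microglia markers were also the lowest of the 7, at 0.88 and 0.85 times that median. Among the old early inputs, replicates 2 and 5, both males, were highest for 15 and 11 genes, and among the young inputs the females 6 and 7 were highest for 12 and 8. Calls that change without TRAP animal 3, old early replicates 2 and 5 or young replicates 6 and 7 are named beside the comparison they belong to.

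**Figure D1:**
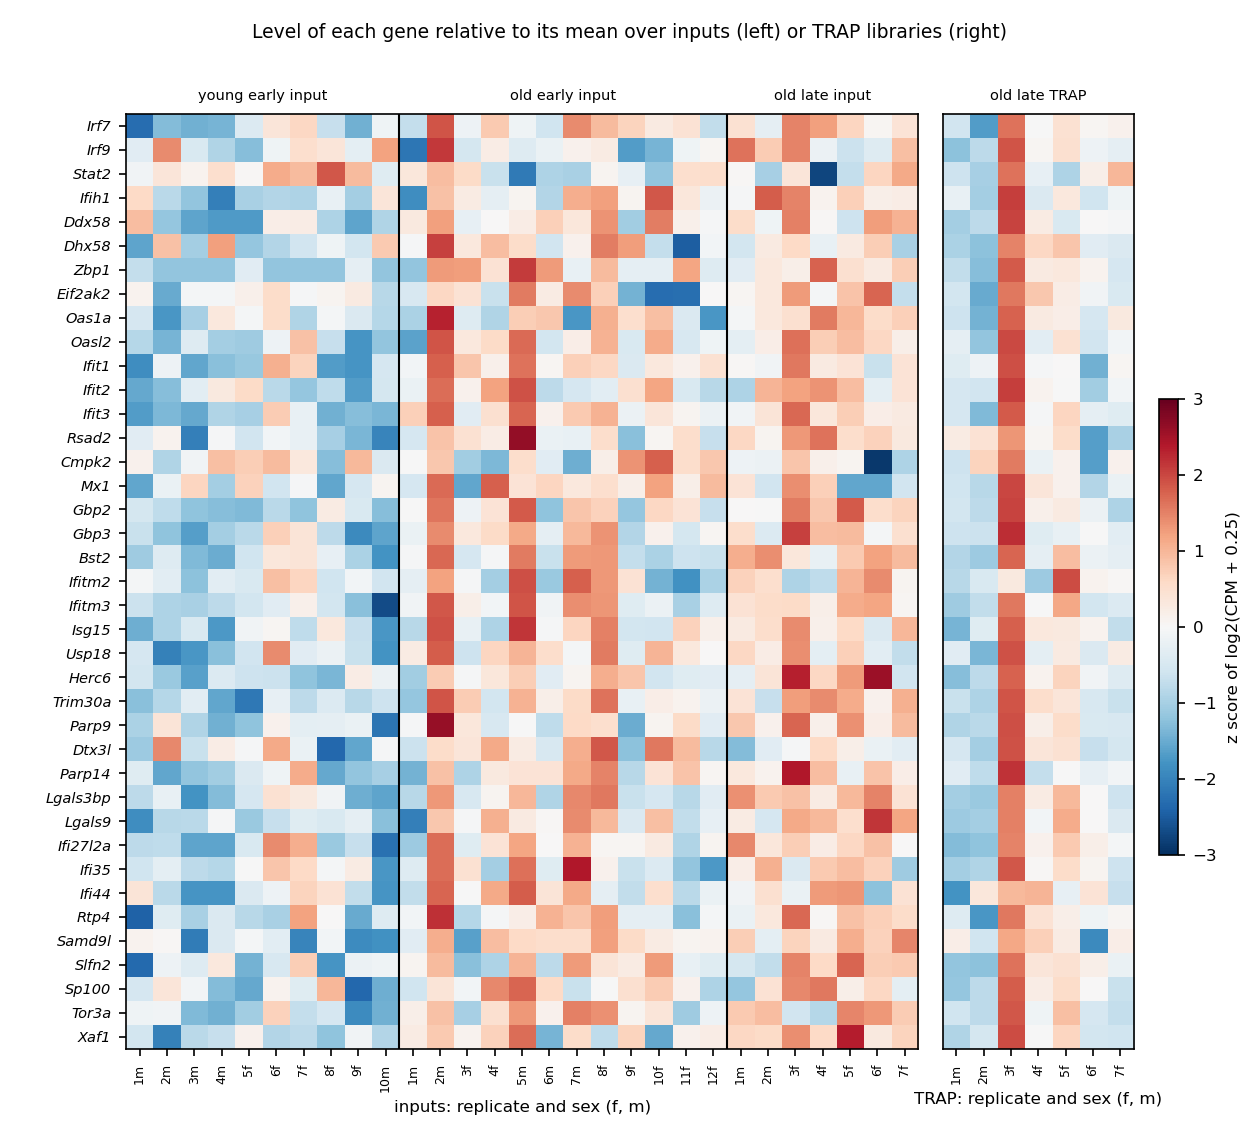
Heat map of the level of all 39 genes (rows, by role) in each library (columns, by group, replicate and sex), as a z score of log2(CPM + 0.25) over the 29 inputs (left) or over the 7 TRAP libraries (right), with red above and blue below the gene's mean. TRAP replicate 3 is the highest of its group for 37 of 39 genes, and old early replicates 2 and 5 are highest for 26 genes between them.

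The first comparison asked how much of the interferon-stimulated transcripts the pulldown of old late animals held relative to the tissue around them. Most of these genes were higher in TRAP than in input, but by less than the genes that mark microglia, and the IFIT genes, Rsad2, Cmpk2 and Xaf1 were not called by the unpaired test. With the animal kept as a block, which pairs the 2 libraries of each animal, Ifit1 was called higher at a log2 fold change of 0.50 (adjusted p = 0.0151). With edgeR's quasi-likelihood test and Benjamini-Hochberg adjustment, genes with an adjusted p under 0.05 were called. Of 38 genes tested, 29 were called higher in TRAP and 0 lower, where 30.4% of all 14596 genes tested were called higher and 28.8% lower. Their median log2 fold change was 1.45, against -0.02 over all genes tested. The counts include Zbp1 and Ifi44, which were too low to be tested among the inputs alone. Both passed the filter here through their TRAP libraries, where they were higher, so their calls add no support. The 15 microglia markers were all called higher, with log2 fold changes between 2.93 and 4.45 (median 4.29). The 7 markers of border macrophages were called higher too (median 3.81), as were the 8 endothelial markers (median 1.07). All 4 markers of red blood cells, all 7 of oligodendrocytes (median -1.33) and 6 of 7 of astrocytes (median -0.44) were called lower. Of the 7 neuron markers tested, 3 were called lower and 4 were not called (median -0.135), so neuronal RNA stayed near its input level. The part of endothelial or border macrophage RNA in the result was not tested. In bulk RNA, more cells of a type and more RNA per cell cannot be told apart, here or below.

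Lgals9, which encodes galectin-9, a secreted lectin that modulates immune cells, had the largest fold change. Old late inputs held 4.63 to 9.86 CPM (median 7.06) and TRAP libraries 65.0 to 145.5 CPM (median 88.9). Every TRAP library lay far above every input, and the log2 fold change was 3.76 ± 0.14 (SE, adjusted p = 6.3e-13). Lgals3bp, the secreted galectin-3 binding protein, ranged from 27.8 to 47.8 CPM in the inputs (median 36.6) and from 92.3 to 424.9 CPM in TRAP (median 178.4), a log2 fold change of 2.34 ± 0.29 (SE, adjusted p = 2.55e-06). Its groups did not overlap, and the pulldowns of the 2 males were the lowest of the 7.

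All 7 sensors and RNA-activated enzymes were called higher. Zbp1, a sensor of left-handed nucleic acid that can trigger necroptosis, rose by a log2 fold change of 3.35 ± 0.51 (SE), from 0.119 to 0.731 CPM in input to 0.635 to 11.96 CPM in TRAP. The 11.96 CPM of TRAP replicate 3 was 5.87 times the median of the others, and the 2 groups overlapped. Without that library the log2 fold change was 2.66, and without both libraries of animal 3 it was 2.54 (adjusted p = 1.7e-05). Because Zbp1 passed the filter on low counts through its TRAP libraries, the direction of its call was favoured by that filter. Oas1a makes the second messenger that activates RNase L and rose by 3.24 ± 0.29 (SE). Dhx58 (LGP2), a cofactor of the RNA helicase sensors, rose by 2.42, the helicase sensors Ifih1 (MDA5) by 1.55 and Ddx58 (RIG-I) by 1.39, Oasl2 by 1.38, and Eif2ak2 (PKR), which halts translation on sensing double-stranded RNA, by 1.21.

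The 7 genes of ISG15, ubiquitin and ADP-ribosylation were also all called higher, with a median log2 fold change of 2.10. Parp14, a mono-ADP-ribosyltransferase, ranged from 2.35 to 5.00 CPM in the inputs (median 2.75) and from 22.2 to 59.8 CPM in TRAP (median 26.5). The groups were well apart, at a log2 fold change of 3.27 ± 0.22 (SE, adjusted p = 1.25e-09). Trim30a, a ubiquitin ligase of the TRIM family, rose by 3.25 ± 0.21 (SE). Parp9 and its partner ubiquitin ligase Dtx3l, whose entries overlap by 558 bases on opposite strands, rose by 2.18 and 2.10. Usp18, the protease that removes ISG15 and dampens receptor signalling, rose by 1.88, Isg15 itself by 1.22, and Herc6, the ligase that attaches ISG15 in mice, by 0.70.

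All 3 membrane restriction factors were called higher. Bst2 (tetherin), which holds budding virus at the cell surface, ranged from 4.69 to 11.48 CPM in the inputs (median 9.03) and from 33.3 to 78.9 CPM in TRAP (median 43). Its lowest TRAP library was above its highest input, and the log2 fold change was 2.48 ± 0.21 (SE, adjusted p = 2.88e-08). Ifitm3 and Ifitm2, which block fusion of viruses with endosomes, rose by 1.10 and 0.69. The copies of the Ifitm, Ifit, Gbp, Oas and Slfn families are alike in sequence, and 77.2% of the nonzero values were not whole, so counts may have been divided between such copies and their values are uncertain to that extent.

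The 3 IFIT genes, which encode proteins that bind foreign RNA and block its translation, were not called. Ifit3 ranged from 8.12 to 18.9 CPM in the inputs (median 9.93) and from 5.71 to 34.8 CPM in TRAP (median 10.5). The groups overlapped almost wholly, and the log2 fold change was 0.29 ± 0.28 (SE, adjusted p = 0.385). Its 95% interval, from -0.25 to 0.83, ended below the lowest fold change of a microglia marker. Ifit2 had a log2 fold change of 0.21 ± 0.22 (SE) and Ifit1 one of 0.54 ± 0.34 (SE). Where the animal was kept as a block, Ifit1, Irf7 and Stat2 were called as well. In all, 32 genes were then called higher, where 31.9% of all genes tested were. The TRAP to input log2 ratio of Ifit1 was above 0 in 7 of 7 animals, from 0.26 to 0.72 with a mean of 0.48 ± 0.17 (SD, n = 7).

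Rsad2 (viperin), which makes a nucleotide that stops viral polymerases, had the lowest fold change, -0.34 ± 0.28 (SE, adjusted p = 0.307). It ranged from 1.73 to 4.81 CPM in input and from 1.04 to 3.64 CPM in TRAP. Cmpk2, the mitochondrial nucleotide kinase encoded beside it, was level at 20.3 to 27.5 CPM in input and 20.8 to 30.2 CPM in TRAP. Its log2 fold change was 0.02 ± 0.08 (SE), with a 95% interval from -0.15 to 0.18. The guanylate-binding GTPases Gbp3 and Gbp2 rose by 1.43 and 0.94, while Mx1, another antiviral GTPase, was at most 0.562 CPM in the inputs and was too low to be tested.

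Of the transcription factors, Irf9 rose by 1.48 ± 0.14 (SE, adjusted p = 1.07e-07). Irf7, the factor that amplifies interferon production, had a log2 fold change of 0.70 ± 0.32 (SE, adjusted p = 0.075) and ranged from 0.952 to 12.5 CPM in TRAP. Stat2 had one of 0.22 ± 0.12 (SE). Among the other genes, Ifi27l2a rose by 2.92, the T-cell quiescence gene Slfn2 by 2.84, the nuclear body component Sp100 by 2.54, Ifi35 by 2.17, Tor3a by 1.99, Rtp4 by 1.66 and Ifi44 by 1.24. Samd9l (0.28) and Xaf1 (-0.03) were not called. Ifi44 lost its call without both libraries of animal 3 (adjusted p = 0.0583), and the other 28 calls held under each of the 25 alternatives in which the gene was tested.

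**Figure D2:**
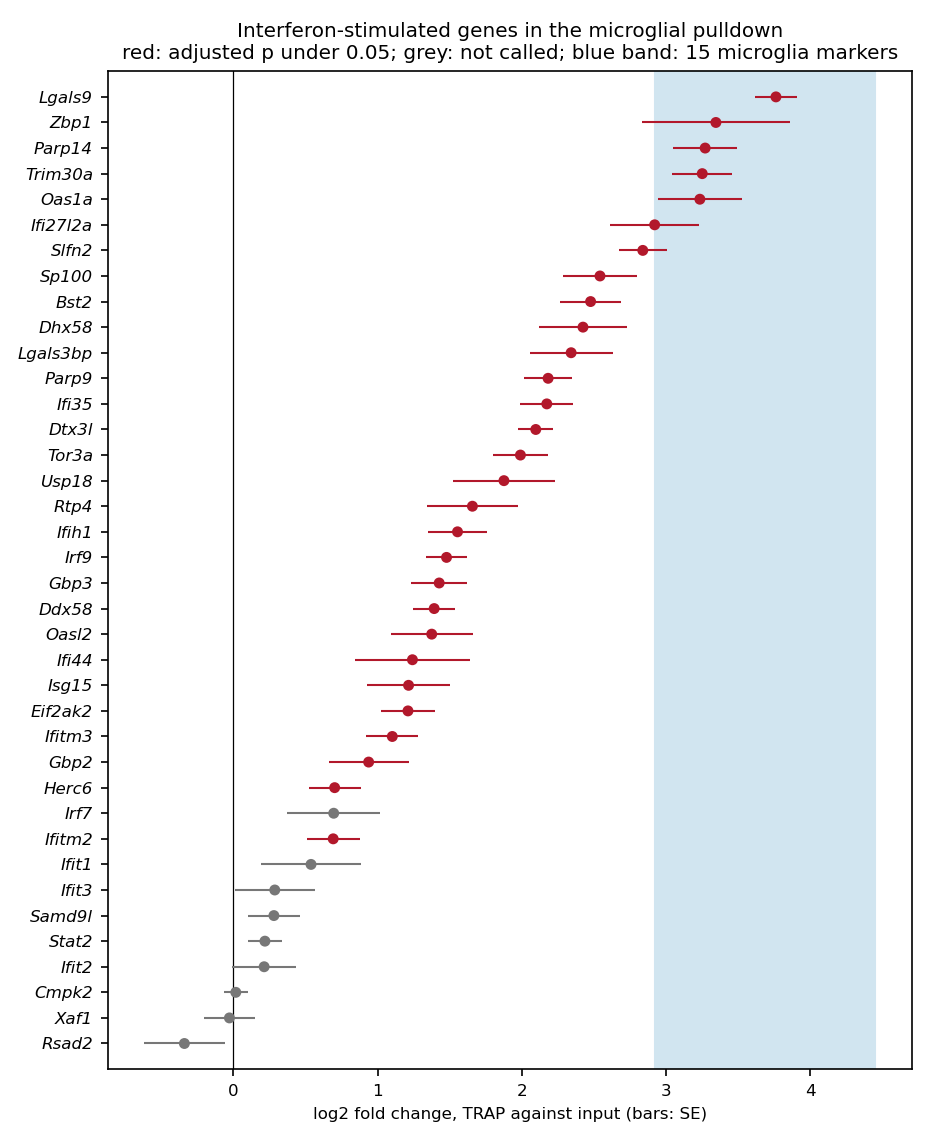
Log2 fold change of TRAP against input in the 7 old late animals for the 38 genes tested (points, with SE bars), sorted by size, red where the adjusted p was under 0.05. The blue band spans the 15 microglia markers (2.93 to 4.45), and 5 genes, led by Lgals9 at 3.76, have points inside it. The median of the markers is 4.29, above every gene shown. By the mean ratio per animal, 1 of the 15 markers lies below the highest gene.

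Each animal's TRAP library was also set against its own input. The log2 ratio of TRAP to input was above 0 in 7 of 7 animals for 30 of the 39 genes and in 6 of 7 for another 3. The share of all genes above 0 in every animal is not given here. In the unpaired fit the log2 fold change was above 0 for 36 of 38 genes tested, against 6995 of all 14596. The mean ratio over animals was at least 3 for 3 genes (Lgals9, Parp14 and Trim30a), between 1 and 3 for 24, and under 1 for 12. The median over the genes ran from 1.00 in animal 2 to 2.08 in animal 3, whereas that over the microglia markers ran from 4.09 to 4.47. Ratios of Parp14 were close between animals, 2.74 to 3.56 with a mean of 3.20 ± 0.30 (SD, n = 7). Those of Irf7 were not, at -0.74 in animal 2 and 1.62 in animal 3. Groups of TRAP and input libraries did not overlap for 20 of the 38 genes that passed the filter over all libraries, against 18.9% of all 15156 genes.

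Levels per kb of exon gave another order. In the young inputs Ifitm3 was highest at 9.81 CPM per kb, followed by Ifitm2 at 9.03, Lgals3bp at 6.74 and Cmpk2 at 6.26. In TRAP Lgals3bp led at 71.7 CPM per kb, followed by Bst2 at 53.7, Lgals9 at 44.5 and Ifitm3 at 38.2. The lowest in both were Ifi44, Mx1 and Zbp1 in the young inputs (at most 0.0432) and Ifi44, Mx1 and Rsad2 in TRAP (at most 0.522). Neighbours in these orders were not tested against each other.

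The next comparisons asked how the genes changed with age in whole hippocampus. Old early inputs shared the induction age of the young, and old late inputs did not. The time since induction was therefore longer in the old early animals than in the young, and cannot be told apart from age. Both comparisons used the same 10 young libraries, so their values are given side by side and are not independent of each other. In the old early inputs 19 of the 36 genes tested were called higher than in the young and 0 lower, where 13% of all 14948 genes tested were called higher and 12.6% lower. In the old late inputs 23 of 36 were called higher and 0 lower, against 17% higher and 17.5% lower of all genes. The median log2 fold changes of the genes were 0.48 and 0.65, against 0.01 over all genes in both. Zbp1, Mx1 and Ifi44 were too low to be tested. In females alone 1 gene (Ifih1) was called higher in old early, where 4.29% of all genes were, and the median log2 fold change of the genes was 0.26. In females alone 14 were called higher in old late, where 9.39% of all genes were, with a median of 0.61. In males alone 13 of 34 were called higher in old early, where 6.81% of all genes were, with a median of 0.66.

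Single libraries decided some of these calls. With each library left out in turn, 14 to 20 genes were called in old early and 19 to 26 in old late. The share of all genes called in these fits is not given here. In old early the calls of Ifih1 and Xaf1 were each lost in 16 of 22 such fits, that of Bst2 in 10 and that of Ifit2 in 9. The old early call of Rsad2 was lost without old early replicate 5 and that of Lgals9 without old early replicate 7 (adjusted p = 0.0547). In old late the call of Slfn2 was lost in 9 of 17 such fits. That of Rtp4 was lost without old late replicate 3 or 5 or young replicate 9, and that of Ifit2 without old late replicate 2 or 4. The old late call of Ifih1 was lost without old late replicate 2, and those of Isg15 and Parp14 without old late replicate 3. Without young replicates 6 and 7, 20 genes were called higher in old early and 26 in old late, where 12.6% and 16.7% of all genes were. The median log2 fold changes were then 0.56 and 0.69. In old early Ifi27l2a, Lgals3bp, Parp14 and Rtp4 were then called as well, while Ifih1, Ifit2 and Xaf1 were not. In old late Ifit1, Usp18 and Ifi27l2a were then called as well.

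Microglia markers moved with age by similar amounts. In the old early inputs 14 of 15 were called higher (median 0.44) and in the old late inputs 15 of 15 (median 0.64). Their summed level was 556.1 to 656.6 CPM in the young, 759.2 to 923.7 CPM in the old early and 811.9 to 1188 CPM in the old late inputs. Oligodendrocyte markers were called higher too, 6 of 7 in old early and 7 of 7 in old late, as were 2 and 4 of the 4 red blood cell markers. The 8 endothelial markers had 2 calls in each, and the 7 border macrophage markers 0 in old early and 1 in each direction in old late. The part of these cell types in the change of the interferon-stimulated genes was not tested.

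All 3 IFIT genes rose in the old early inputs, and 2 of them in the old late inputs. Young inputs held 3.81 to 12.15 CPM of Ifit3 (median 4.58), old early inputs 7.22 to 19.6 CPM (median 10.4) and old late inputs 8.12 to 18.9 CPM (median 9.93). Only young replicate 6, at 12.15 CPM, and young replicate 7 reached the old levels. The log2 fold changes were 1.03 ± 0.21 (SE, adjusted p = 0.000423) in old early and 1.00 ± 0.23 (SE, adjusted p = 0.00136) in old late. Ifit1 rose by 1.12 ± 0.35 (SE) in old early, and its change in old late, 0.90 ± 0.39 (SE), was not called (adjusted p = 0.0752). The old late change of Ifit1 was called without young replicate 6 (1.29, adjusted p = 0.00894), without young replicate 7 (1.11, adjusted p = 0.0306) and by limma voom (1.19, adjusted p = 0.0152). Without both young libraries the changes were 1.87 in old early and 1.75 in old late. Ifit2 rose by 0.27 and 0.34.

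Rsad2 was the gene with the largest change in both. Young inputs held 0.294 to 1.74 CPM (median 1.17), old early inputs 0.629 to 9.15 CPM (median 1.79) and old late inputs 1.73 to 4.81 CPM (median 2.51). The 9.15 CPM of old early replicate 5 stood alone, more than any other library of any group. The log2 fold changes were 1.13 ± 0.36 (SE, adjusted p = 0.0209) and 1.51 ± 0.40 (SE, adjusted p = 0.00438). Without old early replicate 5 the first was 0.67 and no longer called (adjusted p = 0.0871). Its neighbour Cmpk2 stayed between 20.3 and 29.8 CPM in all 29 inputs, with log2 fold changes of 0.01 ± 0.05 (SE) and -0.06 ± 0.06 (SE). Gbp2 rose by 0.92 and 1.22 and Gbp3 by 0.63 and 0.77.

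Isg15, a ubiquitin-like modifier, was at 0.541 to 1.51 CPM in young inputs (median 0.925), 0.840 to 3.35 CPM in old early inputs (median 1.35) and 1.07 to 2.47 CPM in old late inputs (median 1.67). These low values overlapped between groups, and the log2 fold changes were 0.80 ± 0.25 (SE, adjusted p = 0.0182) and 0.82 ± 0.28 (SE, adjusted p = 0.0227). Usp18 rose by 1.01 in old early, and its 0.75 in old late was not called. Without young replicate 6 the old late change of Usp18 was 1.15 and was called (adjusted p = 0.00879). Trim30a rose by 0.74 and 0.88. Parp9 (0.65), Parp14 (0.58) and Herc6 (0.51) rose in old late, and their values in old early (0.40, 0.42 and 0.26) missed the threshold. Dtx3l, the partner of Parp9, was called in neither (0.14 and 0.02).

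Bst2 was at 1.86 to 6.62 CPM in young inputs (median 3.42), 3.07 to 13.8 CPM in old early inputs (median 4.59) and 4.69 to 11.48 CPM in old late inputs (median 9.03). Most old early libraries sat within the young range, and 2 males among them were the highest of all inputs. The log2 fold changes were 0.77 ± 0.28 (SE, adjusted p = 0.0401) and 1.19 ± 0.31 (SE, adjusted p = 0.00332). Ifitm3 rose by 0.78 and 0.86, and Ifitm2 (0.23 and 0.34) was called in neither. The secreted proteins followed, with Lgals9 up by 0.42 and 0.65 and Lgals3bp up by 0.98 in old late (0.55 in old early, adjusted p = 0.0565).

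Among sensors Ifih1 rose by 0.42 and 0.58, Ddx58 by 0.45 and 0.51 and Oasl2 by 0.78 and 0.85. Dhx58 (0.36 and 0.20), Eif2ak2 (0.02 and 0.19) and Oas1a (0.91 and 1.26) were not called, and Oas1a was at most 1.85 CPM in any input. Oas1a was called in old late without young replicate 6 (1.49, adjusted p = 0.0493). Irf7 was the one transcription factor to rise, from 0.577 to 2.65 CPM in the young (median 1.20) to 1.36 to 4.76 CPM in old early (median 2.34) and 1.73 to 3.99 CPM in old late (median 2.45). The ranges overlapped, and the log2 fold changes were 0.82 ± 0.24 (SE, adjusted p = 0.0124) and 0.88 ± 0.27 (SE, adjusted p = 0.0116). Irf9 had -0.05 and 0.16. Stat2 had -0.15 ± 0.07 (SE) and -0.16 ± 0.08 (SE), and the first was called lower (-0.19, adjusted p = 0.0497) when old early replicate 2 was left out.

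Of the other genes, Samd9l rose by 0.52 and 0.66, Tor3a by 0.41 and 0.50 and Xaf1, a binder of the apoptosis inhibitor XIAP, by 0.27 and 0.50. Xaf1 was the 1 gene whose old late inputs all lay above the young (6.71 to 10.03 against 4.26 to 6.50 CPM), where 2.38% of all 15156 genes did so. None of the genes had old early inputs all above the young, against 0.838% of all genes. Rtp4 (0.78) and Slfn2 (0.54) rose in old late, with 0.60 and 0.34 in old early, and both calls were among those that single libraries decided. Ifi27l2a (0.76 and 1.07), Sp100 (0.50 and 0.59) and Ifi35 (0.18 and 0.28) were called in neither. Without young replicate 6, Ifi27l2a was called in old early (1.24, adjusted p = 0.0345) and in old late (1.59, adjusted p = 0.00919). Its old late change was also called without young replicate 7 (1.38, adjusted p = 0.0287) and by limma voom (1.60, adjusted p = 0.0101). Sp100 was called in old late without old late replicate 1 (adjusted p = 0.0492) or young replicate 8 (adjusted p = 0.0444).

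**Figure D3:**
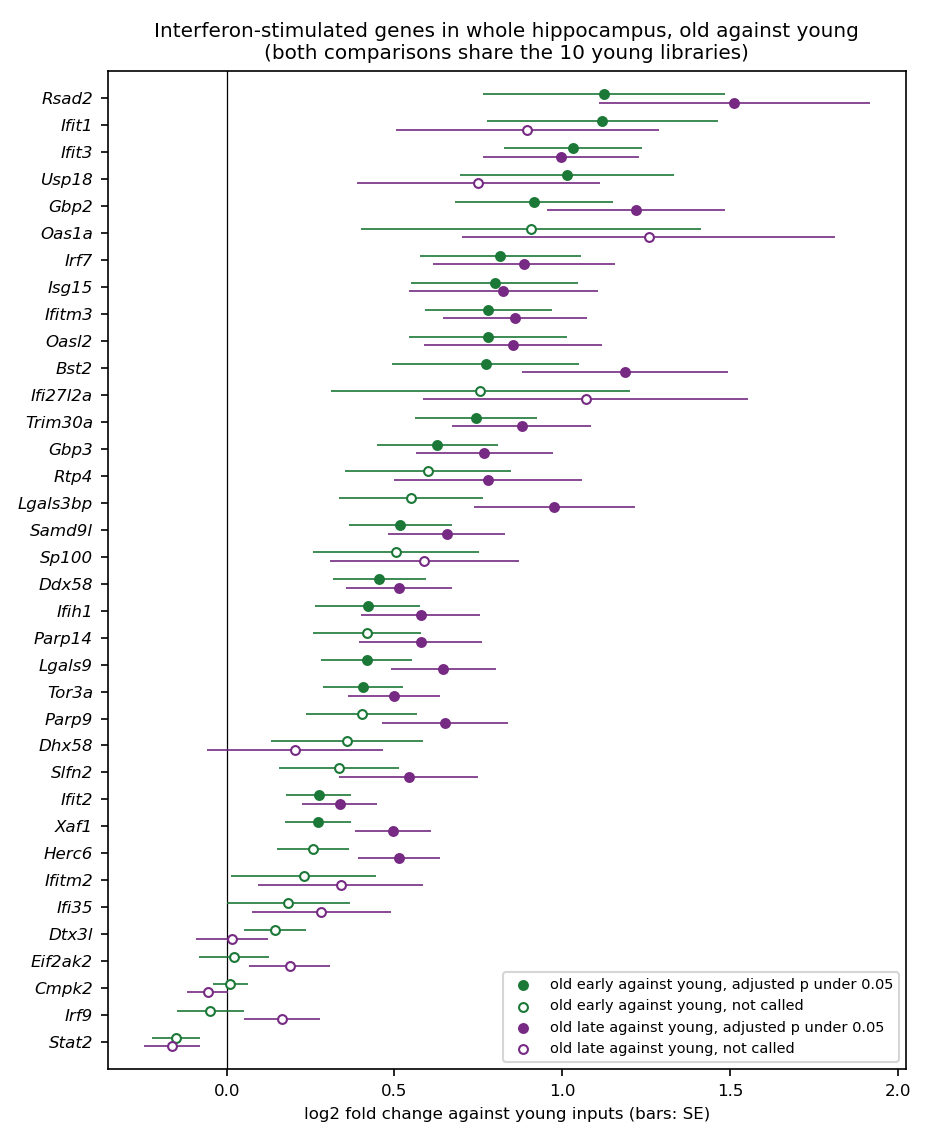
Log2 fold change against the 10 young inputs of the 12 old early (green) and 7 old late inputs (purple) for the 36 genes tested, with SE bars and filled points where the adjusted p was under 0.05. Of the 36 genes, 19 are filled in green and 23 in purple, and all filled points are to the right of 0.

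**Figure D4:**
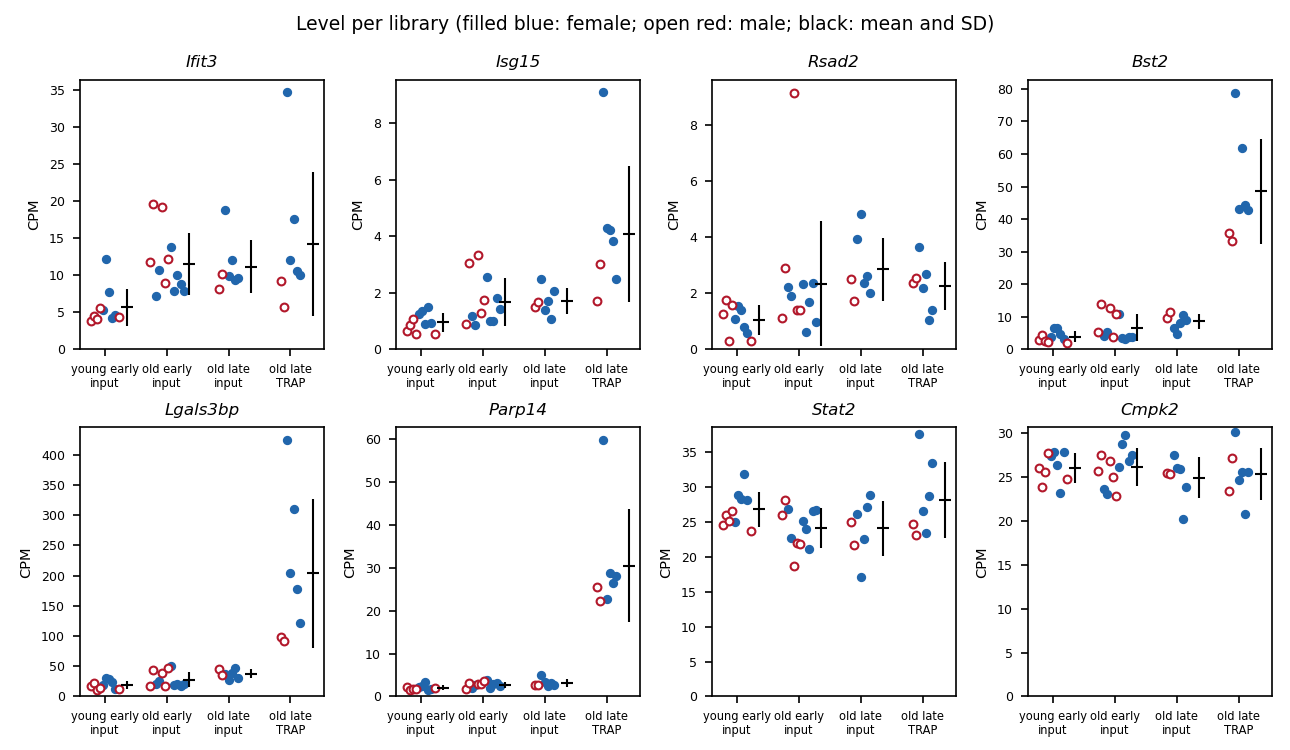
CPM of 8 genes in each of the 36 libraries, by group and sex (filled blue female, open red male), with the mean and SD in black. Lgals3bp, Parp14 and Bst2 are far higher in TRAP, Ifit3, Isg15 and Rsad2 are higher in the old inputs than in the young, and Stat2 and Cmpk2 stay level.

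The 2 high old early libraries carried part of the first age comparison. Without replicates 2 and 5, 8 genes were called higher (Ddx58, Gbp2, Ifit3, Ifitm3, Irf7, Samd9l, Tor3a and Trim30a), where 10% of all genes were, and the median log2 fold change was 0.36. The microglia markers of these libraries were at 0.96 and 1.09 times the median of their group. Replicate 5 had the highest sums of the old early inputs for granulocyte and monocyte markers (15.3 CPM, with 7.93 CPM in replicate 2), for B cells (6.55 CPM, with 2.12 CPM in replicate 2) and for red blood cells (2274 CPM, with 393.9 CPM in replicate 2). Replicate 2 was the next highest for all 3 sums. The T and NK cell sum was also highest in replicate 5 (3.35 CPM), but in replicate 2 it was 1.45 CPM, against a group median of 1.47 CPM. Neuron sums were the 2 lowest of the group, 5973 CPM in replicate 2 and 6179 CPM in replicate 5, against a median of 6654 CPM. Astrocyte and oligodendrocyte sums ranked 11 of 12 in replicate 2, and 6 and 4 in replicate 5. The border macrophage sum was highest in replicate 2 (17 CPM) and was 14.3 CPM in replicate 5, the third highest, against a group median of 9.30 CPM. The endothelial sums of the 2 libraries, 146.9 and 150.3 CPM, were the highest of the group, whose lowest was 62.9 CPM. The part of these cells in the levels of the interferon-stimulated genes was not tested.

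Old late and old early inputs, which differ in the age of induction, were compared next. None of the 36 was called higher or lower by edgeR, where 0.0268% of all 14948 genes were called higher and 0.00669% lower. At an unadjusted p under 0.05 there were 2 of 36 genes, against 11.6% of all genes. Limma voom called 0 as well, and so did DESeq2, which gave an adjusted p for 3 of the genes. The median log2 fold change was 0.14, and values ran from -0.26 for Usp18 to 0.43 for Lgals3bp. They were above 0 for 29 of 36 genes, against 7462 of all 14948. In females alone the median was 0.34, with 31 of 36 above 0. There 0 of the genes were called, where 0.35% of all genes were called higher and 0.875% lower. For Ifit3 the 95% interval of the difference was -0.47 to 0.40.

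Sex alone gave no call either, in a fit with group as covariate over the 29 inputs. None of the 36 genes was called between males and females by edgeR, where 0.0468% of all genes were called higher in males and 0.127% lower. At an unadjusted p under 0.05 there were 0 of the 36, against 10.9% of all genes. DESeq2 and limma voom called 0 too. Counts of Xist and Ddx3y matched the sex labels of all 36 libraries.

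The age difference by sex was the last comparison, within the 22 early-induced inputs. The interaction, which is the age difference of males minus that of females, called 0 of 36 genes by edgeR in either direction, with 0% of all 14953 genes called higher and 0% lower. At an unadjusted p under 0.05 there were 13 of 36 genes, against 2301 of the 14953, and DESeq2 and limma voom called 0 of the genes. The interaction was above 0 for 32 of 36, with a median of 0.54 against 0.00 over all genes, and the smallest adjusted p was 0.222. Bst2 averaged 2.74 ± 0.92 CPM in young males (SD, n = 5) and 9.20 ± 4.53 CPM in old males (SD, n = 5), but 4.91 ± 1.59 CPM in young females (SD, n = 5) and 4.87 ± 2.75 CPM in old females (SD, n = 7). Young males were thus the lowest and old males the highest of the 4, with an interaction of 1.74 ± 0.49 (SE, adjusted p = 0.222).

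Ifit3 showed that order too. It averaged 4.47 ± 0.65 CPM in young males (SD, n = 5), 14.4 ± 4.75 CPM in old males (SD, n = 5), 6.81 ± 3.26 CPM in young females (SD, n = 5) and 9.45 ± 2.29 CPM in old females (SD, n = 7). Every old male was above every young male, and its interaction was 1.21 ± 0.34 (SE, adjusted p = 0.222). Ifi27l2a (3.09), Usp18 (1.71) and Ifi35 (1.23) had interactions of the same sign. The high libraries 2 and 5 are 2 of the 5 old males, and without them the interaction was above 0 for 24 of 36 genes, with a median of 0.23 and a smallest adjusted p of 0.712. Without old early replicate 6, another male, 4 genes were called (Ifit3, Bst2, Ifi27l2a and Ifi35). The share of all genes called in that fit is not given here. In the interaction fit with no library left out, the microglia markers had a median interaction of -0.11. In that full fit the median was 1.55 for the 3 granulocyte and monocyte markers tested and 1.58 for the 4 red blood cell markers. Marker medians of the fits that left out libraries are not given here, and the part of these cells in the result was not tested.

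Spread between animals was wide for these genes. The median SD of log2 CPM was 0.42 in the young, 0.47 in the old early and 0.36 in the old late inputs and 0.55 in TRAP, against 0.13, 0.17, 0.16 and 0.20 over all genes. Their median levels, 2.59 to 4.39 CPM in the input groups, were below the 22.4 to 22.5 CPM over all genes, and low counts add to an SD of log values. In TRAP, where the spread was widest, their median level was higher than in the inputs, at 12.4 CPM against 26.2 CPM over all genes. Cmpk2, at 20.3 CPM or more in every input, had one of the lowest spreads.

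The rest of the pathway was read from 117 further genes. Of the 12 interferon genes on the list, none passed the filter on low counts in input or TRAP, so the ligands were not measurable at this depth. In TRAP, 72 of 89 genes tested were called higher and 3 lower, where 30.4% of all genes were called higher and 28.8% lower. All 10 receptor and kinase genes tested were higher, among them Ifnar2 by 1.92 and Ifnar1 by 0.58. The largest changes were in Irf5 (4.42), Ifi204 (4.24), the phosphatase gene Ptpn6 (4.20), Irf8 (4.20), which directs the microglial lineage, and Epsti1 (4.08). Sting1 and Cgas, the adaptor and sensor of cytosolic DNA, rose by 3.95 and 1.53, Irf3 by 0.56 and the chemokine gene Cxcl10 by 1.27.

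With age, 15 of 84 pathway genes were called higher and 1 lower in old early inputs, where 13% of all genes were called higher and 12.6% lower. In old late inputs 33 were called higher and 3 lower, where 17% of all genes were called higher and 17.5% lower. Irf8 rose by 0.90 and 1.16, Sting1 by 0.61 and 0.67, Epsti1 by 0.96 and 1.10, Ptpn6 by 0.80 and 1.07 and Cxcl10 by 1.74 and 1.91 (at most 16 counts in any young library). Ifit3b (0.84) and Gbp6 (0.83) were also among the largest in old early, and Nlrc5 (1.44) and Socs3 (0.90) in old late. Ifnar1 (-0.0012 and -0.03), Ifnar2 (0.09 and 0.17), Irf3 (-0.11 and -0.04) and Cgas (-0.10 and -0.04) were called in neither.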

How the data were processed

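PolyA RNA of mouse hippocampus was sequenced in 36 libraries. Values are estimated counts, marked raw per the file headers of the single table the authors deposited, in which 77.2% of nonzero values were not whole. Aligner, counting tool and strand handling are not given in the sources used here, and the submitters' processing notes name DESeq2 and build mm10. All 39 genes had coordinates within 1000 bases of GENCODE M21 on GRCm38, whose exons gave the lengths. Library totals were 12.9 to 20.4 M.

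Estimated counts were rounded and tested with edgeR 4.0.16 (filterByExpr, minimum count 10, TMM, glmQLFit, glmQLFTest) in R 4.3.3 on all genes, with Benjamini-Hochberg adjustment over all genes tested and calls at an adjusted p under 0.05. TRAP against input was fitted on the 14 old late libraries with sex as covariate, the contrasts of age, induction and sex on all 29 inputs with group and sex, and the interaction on the 22 early-induced inputs. The F statistic gave the standard errors. CPM used TMM sizes over 36 libraries, and ratios per animal a prior count of 2. Animal numbers in the labels paired TRAP with input. After subtracting group means, the 2 libraries of an animal correlated across genes at 0.288 to 0.431 in the 7 pairs, against a median of -0.083 between animals, so the replicate block (animal) was fitted as an alternative. Alternatives were other scalings, filters, covariates and tools (DESeq2 1.42.0, limma 3.58.1 voom), females alone, and leaving out single libraries. Males only, leaving out old early replicates 2 and 5, young replicates 6 and 7, or animal 3 were chosen after seeing the data. The fits were also run on simulated counts, drawn independently for each library. These held no animal effect, so they do not cover the pairing of TRAP with input, and their outcome is not given here.

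The genes, pathway genes and marker lists (235 of 236 genes matched, 19 by identifier) were chosen with earlier results of these data known. Pathway genes named are the 5 largest called changes per comparison with an average log2 CPM over 0, plus Ifnar1, Ifnar2, Irf3, Irf8, Cgas, Sting1 and Cxcl10. Results of 1 further gene are not reported here. Other pathway genes are given as counts.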

Additional observations from a re-analysis of the deposited data

Results flagged for a closer look

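In groups of 4 to 10 libraries, 152 sets of values of these genes were checked for a single high or low library, and 11 stood apart, where chance alone gives about 1 in 20, or 7.6. The 12 old early inputs were too many for this check. TRAP replicate 3 was set apart as the highest for Ddx58 (4.34 log2 CPM), Ifit2 (4.95), Gbp2 (4.42), Gbp3 (4.44) and Parp14 (5.91). The TRAP to input log2 ratio of the same animal stood apart for Oas1a (4.45), Ifit2 (1.21), Dtx3l (2.65) and Xaf1 (0.72). Among the young inputs, replicate 10 was low for Ifitm3 (1.63 log2 CPM) and replicate 7 was high for Parp14 (1.86 log2 CPM). Of the 11 values, 9 belonged to animal 3, and no cause was tested.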

How the results depend on the processing

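TRAP against input kept 29 to 30 genes called higher with each library left out. With a minimum count of 50, 24 of 31 tested were called higher (the other 5 were not tested there), where 32.4% of all genes were. Without animal 3, 28 were called higher, where 27.8% of all genes were. The replicate block (animal) called 32, where 31.9% of all genes were called higher. It added Irf7, Stat2 and Ifit1 and lost none. Under upper quartile scaling the median over all genes moved to -0.17 and 34% of all calls were higher, against 51.4%. With that scaling 29 of the interferon-stimulated genes were still called higher, where 22.5% of all genes tested were. Old early against young called 19 genes, 14 to 20 with each library left out, 1 in females only (4.29% of all genes higher, against 13%), and 8 when leaving out old early replicates 2 and 5 (10% of all genes higher); lower calls ran from 0 to 1 with each library left out. None of the 19 calls held under all 35 alternatives. Old late against young called 23 genes, 19 to 26 with each library left out and 14 in females only (9.39% of all genes higher, against 17%), and 11 of the 23 held under all 28 alternatives in which they were tested. The interaction of age and sex called 0 to 4 genes with each library left out. For all fits that left out a single library, the share of all genes called is not given here. No call changed sign under the alternatives run. Among females alone 5 young, 7 old early and 5 old late inputs remain, and the cause of the lower counts was not tested. The median TRAP to input ratio was 1.38 to 1.48 with prior counts of 5 and 0.5. Of the promoters, 8 held an ISRE within 100 bases, against 12 within 250. Depth limits Zbp1, Mx1, Ifi44 and the interferon genes, which had too few counts to test between ages.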
